A study of Homo sapiens with 6 samples.

Results

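The collagen genes examined here are the 43 genes whose only gene symbol on the array has the form COL, digits, A, digits, out of 19040 genes with a probe set that names a single gene. They are represented by 122 probe sets, of which 13 genes have 1 and 30 genes have several, and each gene was read from its probe set with the highest mean log2 intensity over the 6 arrays. RefSeq lists 44 protein-coding genes of this kind, and the 1 outside the set, COL26A1, is not analysed here.

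The arrays hold total RNA from AN3-CA, a human endometrial cancer cell line, plated into 6 dishes. After 24 h of culture, the dishes were changed to serum-free medium for 18 h under 3 conditions, each with 2 arrays that the labels call biological replicates. The DMSO group (C0) received vehicle and no growth factor, the aFGF group (C1) received DMSO and acidic fibroblast growth factor at 10 ng/mL, and the AZD4547 group (C2) received AZD4547 at 300 nM together with 10 ng/mL aFGF. The labels give 0.5% DMSO for the vehicle and no amount for the AZD4547 dishes. No group had AZD4547 without aFGF. All dishes shared the 1 line and the serum-free medium, and nothing says that they came from separate platings, so p-values measure the spread between dishes. aFGF, the product of FGF1, is a ligand of the FGF receptor tyrosine kinases, and AZD4547 inhibits those receptors. The comparisons ask what aFGF did to each collagen transcript and what the inhibitor did in its presence.

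Collagens are secreted or membrane-anchored proteins whose chains wind into triple helices. Fibrillar collagens such as types I, III and V form the fibres of connective tissue, type IV forms the network of basement membranes, and type VI forms beaded microfilaments next to them. In the endometrium the stroma makes most fibrillar collagen, and epithelium rests on a type IV network. Chains are hydroxylated and folded in the endoplasmic reticulum, trimmed and cross-linked outside the cell, and bound by integrins and discoidin domain receptors.

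Of the 43, 6 collagen genes passed the test in at least 1 comparison, and 4 of them, COL4A5, COL5A1, COL3A1 and COL6A1, were lower with aFGF than with DMSO and higher with AZD4547 than with aFGF alone. COL1A2 was slightly higher in both aFGF-treated groups than in DMSO, and COL5A2 was higher with AZD4547 and aFGF than with DMSO. The other 37 passed in no comparison. The 4 genes lower with aFGF are 9.30% of the family, against 9.72% of all genes. The 4 higher with AZD4547 and aFGF than with aFGF alone are 9.30%, against 15.6% of all genes. The share of all genes passing in any comparison, or following the order of these 4, is not given here. Most of the family lay below the median of the array in all conditions.

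Promoter windows from RefSeq are shown for COL4A5, the gene with the largest change of any collagen gene, for its neighbour COL4A6, whose promoter lies beside it, and for COL5A1, which lies on another chromosome and was called in the same directions as COL4A5. Each window runs from 250 bases before to 50 bases after the gene's start, which is base 251, 5′ to 3′ on the gene's strand in build GRCh38.p14, at the most upstream start where a gene has several. The COL4A5 window lies at chrX:108439588-108439887 on the plus strand, the COL4A6 window at chrX:108439409-108439708 on the minus strand, and the COL5A1 window at chr9:134641553-134641852 on the plus strand. Capitals mark the CCAAT box (CCAAT on either strand) in COL4A5 and COL4A6, and the GC box (GGGCGG on either strand) in COL5A1.
COL4A5: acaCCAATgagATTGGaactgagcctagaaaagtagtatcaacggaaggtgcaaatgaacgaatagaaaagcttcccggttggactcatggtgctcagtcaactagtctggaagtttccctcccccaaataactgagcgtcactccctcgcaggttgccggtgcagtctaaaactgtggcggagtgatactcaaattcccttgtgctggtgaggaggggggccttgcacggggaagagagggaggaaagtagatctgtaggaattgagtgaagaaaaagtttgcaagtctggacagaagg
COL4A6: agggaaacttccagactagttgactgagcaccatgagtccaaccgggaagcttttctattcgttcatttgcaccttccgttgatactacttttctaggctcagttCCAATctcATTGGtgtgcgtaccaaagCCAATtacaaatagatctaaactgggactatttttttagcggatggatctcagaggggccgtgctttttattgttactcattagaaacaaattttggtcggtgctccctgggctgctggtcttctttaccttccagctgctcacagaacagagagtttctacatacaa
COL5A1: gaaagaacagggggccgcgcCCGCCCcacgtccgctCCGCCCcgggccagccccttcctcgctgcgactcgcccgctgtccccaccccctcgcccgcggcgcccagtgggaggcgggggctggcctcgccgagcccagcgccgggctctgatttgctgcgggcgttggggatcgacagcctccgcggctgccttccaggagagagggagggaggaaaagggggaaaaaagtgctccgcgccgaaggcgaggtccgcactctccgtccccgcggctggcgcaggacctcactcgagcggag
COL4A5 and COL4A6 are transcribed away from each other, with starts 380 bases apart and 121 bases common to both windows. The 2 CCAAT boxes at bases 4 and 12 of the COL4A5 window are those at bases 106 and 114 of the COL4A6 window, and COL4A6 has 1 more at base 133. COL5A1 has GC boxes at bases 21 and 37. The G and C content was 49.3% in the COL4A5 window, 43.7% in COL4A6 and 74.0% in COL5A1, against a median of 58.7% over all windows.

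Promoters were found for 31 of the 43 genes, in 43 windows, and the motifs were counted beside all 35116 windows of the same length. No window was found for COL1A2, COL3A1, COL5A2 or COL6A1. Of the collagen genes called in any comparison, only COL4A5 and COL5A1 have one. The search covered the TATA box (TATAAA), the CCAAT box, the GC box, the AP-1 site (TGANTCA) and an ETS core (CCGGAA), each on both strands, and no motif in the 3 windows shown overlapped another. CCAAT stood in 14 collagen windows (32.6%) against 34.6% of all windows, and GGGCGG stood in 24 (55.8%) against 45.0%. TATAAA stood in 8 collagen windows (18.6%, against 11.5%), TGANTCA in 1 (2.33%, against 7.71%) and CCGGAA in 0 of 43 (0%, against 17.2%). These are counts of letters in the windows, with no test.

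**Figure D1:**
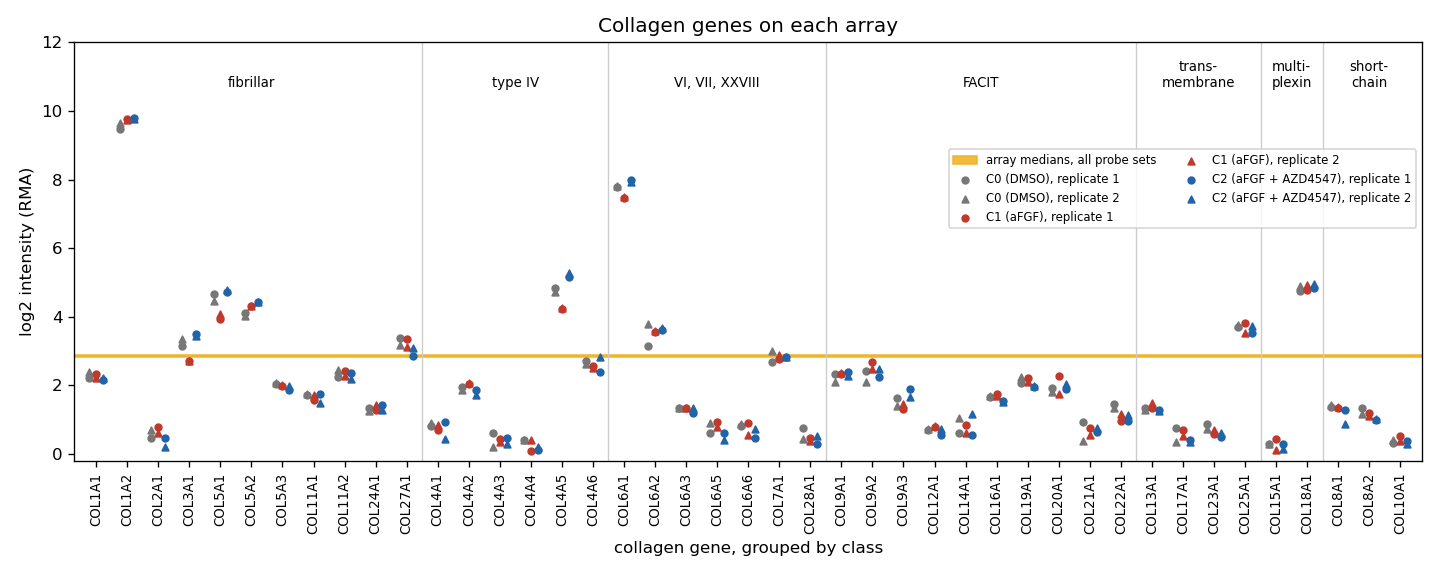
Log2 intensity (vertical axis) of each of the 43 collagen genes, grouped by class along the horizontal axis, with 1 point per array coloured by group and the band showing the medians of the 6 arrays over all probe sets. On every array 9 genes lie above that array's own median, with COL27A1 inside the band on 1 array at 2.87, and 32 genes lie below it.

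On the log2 intensity scale the array medians over all probe sets lay between 2.84 and 2.89, and they serve as the reference level because the deposited table holds no detection calls. Of the 43, 9 were above the median on every array, 20.9% of the family, against 10059 of all 19040 genes (52.8%). At the level of probe sets the share was 23 of 122 (18.9%) against 47.4% of all 49293 probe sets. Intensities of different probe sets depend on their probes, so genes are placed only against the array median and not against each other.

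Among the 11 fibrillar collagen genes, COL1A2, COL5A1, COL5A2 and COL27A1 were above the median on every array. COL1A2, which encodes the second chain type of type I collagen, had log2 intensities of 9.47 and 9.65 in DMSO, 9.76 and 9.75 with aFGF, and 9.81 and 9.77 with AZD4547 and aFGF. All 6 of its probe sets were above the median on every array, with means from 5.14 to 9.70. COL1A1, which encodes its usual partner chain, read 2.23 and 2.39 in DMSO, 2.32 and 2.22 with aFGF, and 2.15 and 2.22 with AZD4547 and aFGF. All 5 COL1A1 probe sets were below the median on every array, with means from 0.59 to 2.26. COL3A1, the chain of type III collagen, was above the median in the DMSO and AZD4547 groups and below it on both aFGF arrays. COL2A1, COL5A3, COL11A1, COL11A2 and COL24A1 were below it throughout.

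Of the 6 type IV genes, COL4A5 alone was above the median on every array. COL4A1 and COL4A2, which encode the chains of the most widespread type IV network, were below it on every array with all 3 of their probe sets each, at 0.44 to 0.94 for COL4A1 and 1.72 to 2.06 for COL4A2. COL4A3, COL4A4 and COL4A6 were also below it throughout. The 6 genes lie in 3 neighbouring pairs, COL4A1 with COL4A2 on chromosome 13, COL4A3 with COL4A4 on chromosome 2, and COL4A5 with COL4A6 on chromosome X, with 0 other protein-coding genes between the members of a pair.

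Of the 7 genes of type VI and the related types VII and XXVIII, COL6A1 and its neighbour COL6A2 on chromosome 21 were above the median on every array. All 6 COL6A1 probe sets were above it. Of 4 COL6A2 probe sets, 2 were above it on every array, both of a kind that can match other transcripts. The other 2 were above it on no array. COL6A3, which encodes the large chain of the common type VI assembly, was below it on every array with all 3 of its probe sets, as were COL6A5, COL6A6 and COL28A1. COL7A1, the chain of the anchoring fibrils of skin, read 2.68 and 3.01 in DMSO, 2.77 and 2.89 with aFGF, and 2.83 and 2.83 with AZD4547 and aFGF, above the median on 2 of the 6 arrays.

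COL18A1, a basement membrane collagen that gives rise to endostatin, was above the median with both of its probe sets, at 4.75 and 4.90 in DMSO, 4.78 and 4.93 with aFGF, and 4.85 and 4.95 with AZD4547 and aFGF. COL25A1, a transmembrane collagen, read 3.69 and 3.77, then 3.81 and 3.54, then 3.53 and 3.73 in the same order, from a probe set of a kind that can match other transcripts. Its 3 other probe sets were below the median on every array. The 10 collagens associated with fibrils, known as FACIT collagens (COL9A1, COL9A2, COL9A3, COL12A1, COL14A1, COL16A1, COL19A1, COL20A1, COL21A1 and COL22A1), were all below the median on every array. So were the transmembrane COL13A1, COL17A1 and COL23A1, the multiplexin COL15A1, and the short-chain network collagens COL8A1, COL8A2 and COL10A1. Means of the 32 genes below the median ran from 0.26 to 2.61.

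Nearest to the reference on the inside were COL27A1, whose smallest margin over an array median was 0.002, and COL6A2, with 0.30. Outside it, COL7A1 ran from -0.180 to 0.121 around the medians, COL3A1 from -0.157 to 0.644, and COL4A6 came within -0.067.

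With aFGF against DMSO, limma called 5 of the 43 genes, 4 lower and 1 higher, at a Benjamini-Hochberg adjusted p under 0.05 over all 19040 genes. The 4 lower genes are 9.30% of the family, against 9.72% of all genes called lower. The 1 higher gene is 2.33%, against 5.92% of all genes called higher. The share called lower is near that of the whole array. The family's median log2 fold change was -0.016, beside -0.008 over all genes, with a range from -0.55 to 0.32.

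COL4A5 encodes a type IV chain of the basement membranes of kidney, ear and eye, and it is the gene of X-linked Alport syndrome. Its log2 intensities were 4.85 and 4.71 in DMSO, 4.24 and 4.26 with aFGF, and 5.16 and 5.29 with AZD4547 and aFGF. The 3 groups did not overlap, with the aFGF arrays lowest and the AZD4547 arrays highest. With aFGF COL4A5 fell by 0.53 ± 0.09 on the log2 scale (SE, 2 arrays a group), 1.45-fold lower than with DMSO (limma adjusted p = 0.0015).

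COL5A1 encodes the main chain of type V collagen, which sits inside type I fibrils and limits their diameter. It read 4.66 and 4.47 in DMSO, 3.95 and 4.09 with aFGF, and 4.72 and 4.79 with AZD4547 and aFGF. Both aFGF arrays were below the other 4. The fall with aFGF was 1.46-fold, -0.55 ± 0.10 on the log2 scale (limma adjusted p = 0.0024). Without the first aFGF array the adjusted p was 0.054 and the change -0.48.

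COL3A1 encodes the chain of type III collagen of distensible tissues. Its arrays read 3.16 and 3.36 in DMSO, 2.70 and 2.71 with aFGF, and 3.51 and 3.45 with AZD4547 and aFGF, and the groups did not overlap. With aFGF it was 1.47-fold lower, at -0.55 ± 0.11 (limma adjusted p = 0.0062). The adjusted p was 0.065 without the first aFGF array and 0.06 without the second.

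COL6A1 encodes a chain of type VI collagen. It read 7.79 and 7.81 in DMSO, 7.45 and 7.48 with aFGF, and 8.0 and 7.94 with AZD4547 and aFGF, again with no overlap between groups. With aFGF it was 1.26-fold lower, at -0.34 ± 0.05 (limma adjusted p = 0.001). Averaged over all its probe sets, the change was -0.14 and the adjusted p 0.27.

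COL1A2 was the 1 collagen gene called higher with aFGF, by 1.14-fold, 0.19 ± 0.06 on the log2 scale (limma adjusted p = 0.046). Both aFGF arrays were above both DMSO arrays, and the DMSO arrays differed from each other by about as much as the group means. The call was lost in 8 of 14 alternative settings, with an adjusted p of up to 0.27, while the change stayed between 0.10, without the first DMSO array, and 0.28. COL5A2, which encodes the other common chain of type V collagen, read 4.10 and 4.03 in DMSO, 4.33 and 4.31 with aFGF, and 4.43 and 4.43 with AZD4547 and aFGF. Its groups did not overlap, and the difference with aFGF was 0.26 ± 0.09 with an adjusted p of 0.067.

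With AZD4547 and aFGF against aFGF alone, 4 collagen genes were called higher and 0 lower. In limma, 7 of the 43 had an unadjusted p under 0.05, in either direction, against 6563 of all 19040 genes. The 4 higher genes are 9.30% of the family, against 15.6% of all genes called higher, and 0 lower compares with 10.1% of all genes called lower. The median log2 fold change of the 43 was -0.056, beside -0.020 over all genes, with a range from -0.36 to 0.98. The aFGF arrays serve as the baseline here and as the treated group above, so a gene low on those arrays enters both comparisons.

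**Figure D2:**
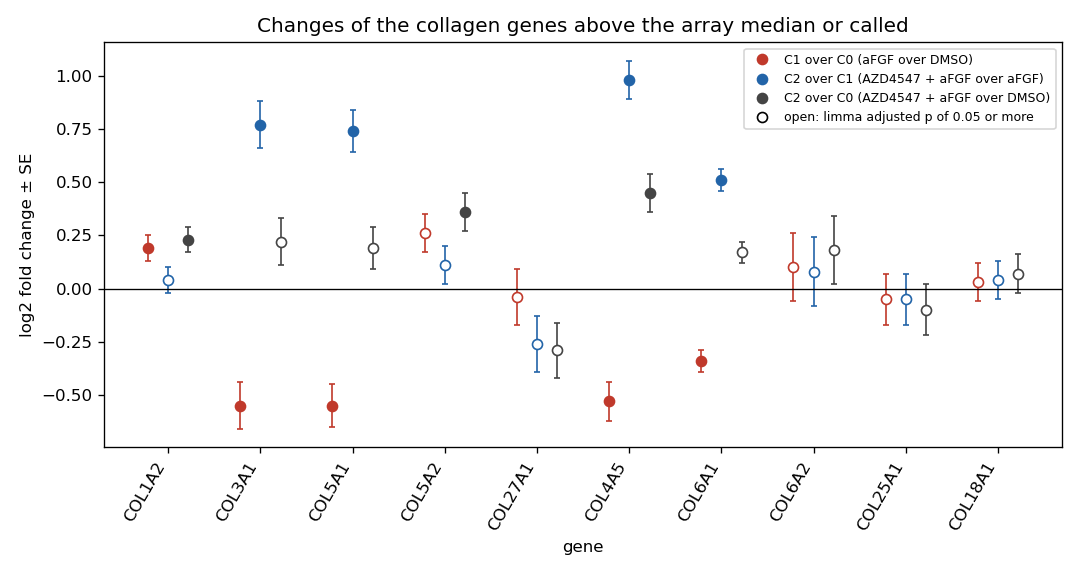
Log2 fold change (vertical axis, point and SE) in the 3 comparisons for the 10 collagen genes above the array median on every array or called in any comparison (horizontal axis), with filled points where the limma adjusted p was under 0.05. COL3A1, COL4A5, COL5A1 and COL6A1 lie below 0 for aFGF over DMSO and above 0 for AZD4547 with aFGF over aFGF.

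COL4A5 rose by 0.98 ± 0.09, 1.97-fold (limma adjusted p = 8.7e-06), the largest change of any collagen gene in the 3 comparisons. COL3A1 rose 1.71-fold, by 0.77 ± 0.11 (adjusted p = 0.00036), and COL5A1 rose 1.67-fold, by 0.74 ± 0.10 (adjusted p = 0.00015). COL6A1 rose 1.42-fold, by 0.51 ± 0.05 (adjusted p = 2.5e-05). For each of the 4, both AZD4547 arrays were above both aFGF arrays. The 4 calls held in each of the 14 alternative settings, with the COL6A1 rise at 0.29 when its probe sets were averaged.

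COL1A2 differed by 0.04 ± 0.06 between these groups (95% interval -0.09 to 0.17, adjusted p = 0.69). COL5A2 differed by 0.11 ± 0.09 (interval -0.08 to 0.30, adjusted p = 0.43). These intervals lie below the changes estimated for COL4A5, COL5A1, COL3A1 and COL6A1, and differences between genes were not tested. The COL5A2 interval does not exclude the 0.29 of COL6A1 with its probe sets averaged. COL9A3, a FACIT collagen of cartilage that is below the array median, came nearest to a call among the 37 genes called in no comparison. It read 1.62 and 1.40 in DMSO, 1.32 and 1.46 with aFGF, and 1.90 and 1.67 with AZD4547 and aFGF, a difference of 0.39 ± 0.14 between the last 2 groups (adjusted p = 0.068).

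With AZD4547 and aFGF against DMSO, 3 collagen genes were called higher (6.98% of the family, against 2.28% of all genes) and 0 lower (against 2.41% of all genes). In limma, 6 of the 43 had an unadjusted p under 0.05, against 3511 of all 19040 genes. COL4A5 was 1.36-fold higher, by 0.45 ± 0.09 (adjusted p = 0.015), COL5A2 was 1.29-fold higher, by 0.36 ± 0.09 (adjusted p = 0.035), and COL1A2 was 1.18-fold higher, by 0.23 ± 0.06 (adjusted p = 0.047). Averaged over all probe sets of a gene, the differences were 0.26 for COL4A5, 0.03 for COL5A2 and 0.17 for COL1A2 (adjusted p = 0.14, 0.91 and 0.11), and without the first DMSO array that of COL1A2 was 0.14. The count went to 0 without either aFGF array, without either AZD4547 array and without the intensity trend in the variance. COL5A1 (0.19 ± 0.10, adjusted p = 0.32), COL3A1 (0.22 ± 0.11, adjusted p = 0.34) and COL6A1 (0.17 ± 0.05, adjusted p = 0.094) did not pass. COL4A5 was called in all 3 comparisons.

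COL18A1, COL25A1, COL27A1 and COL6A2 were above the median on every array and called in no comparison. COL18A1 differed by 0.03 ± 0.09 with aFGF (95% interval -0.17 to 0.22) and by 0.04 ± 0.09 with AZD4547 and aFGF against aFGF (interval -0.15 to 0.24). COL25A1 differed by -0.05 ± 0.12 in both. COL27A1, a fibrillar collagen of cartilage, read 3.38 and 3.17 in DMSO, 3.35 and 3.13 with aFGF, and 2.87 and 3.09 with AZD4547 and aFGF, and its difference between the last 2 groups was -0.26 ± 0.13 (interval -0.55 to 0.03, adjusted p = 0.20). COL6A2 read 3.16 and 3.78 in DMSO, 3.55 and 3.58 with aFGF, and 3.61 and 3.68 with AZD4547 and aFGF. The DMSO arrays of COL6A2 enclosed the other 4, and without the second of them its difference with aFGF was 0.40 (adjusted p = 0.038).

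The neighbouring pairs can be set side by side. COL4A6, read at 2.72 and 2.62, then 2.58 and 2.52, then 2.40 and 2.82, differed by -0.12 ± 0.15 with aFGF (95% interval -0.44 to 0.20) and by 0.06 ± 0.15 with AZD4547 and aFGF against aFGF (interval -0.26 to 0.38). The second interval excludes the rise of 0.98 estimated for COL4A5, whose promoter window overlaps that of COL4A6 in the sequences above, and the first does not reach the fall of 0.53. COL6A2, read from a probe set that can match other transcripts, differed by 0.08 ± 0.16 in the second comparison (interval -0.28 to 0.44). This interval excludes the 0.51 of COL6A1, but not the 0.29 of COL6A1 with its probe sets averaged. COL3A1 and COL5A2, neighbours on chromosome 2, had estimates of opposite sign with aFGF, with the fall of COL3A1 called and the difference of COL5A2 not. The sign for COL5A2 depends on the probe set, as its 6 probe sets ran from -0.10 to 0.26 with aFGF. The differences within pairs were not tested, and COL4A6 was below the array median on every array.

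None of the 32 genes below the median on every array was called in any comparison by limma. In the 3 comparisons in the order given, 1, 3 and 1 of them had an unadjusted p under 0.05. Such a p was found in the same order for 472, 746 and 452 of all 8214 genes below the median on every array. Of all 8214 genes below the median on every array, 0.499% were called higher and 0.633% lower with aFGF, and 1.44% and 1.51% with AZD4547 and aFGF against aFGF. In that second comparison 28 of the 32 (87.5%) had a negative difference, with a median of -0.087, beside 65.3% and a median of -0.060 over the 8214 genes. Of the 10059 genes above the median on every array, 10.3% were called higher and 16.7% lower with aFGF, and 26.5% and 17.2% in the second comparison. Among the 9 collagen genes above it, 1 was higher and 3 were lower with aFGF, and 3 were higher and 0 lower in the second comparison. COL3A1 is not among those 9.

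**Figure D3:**
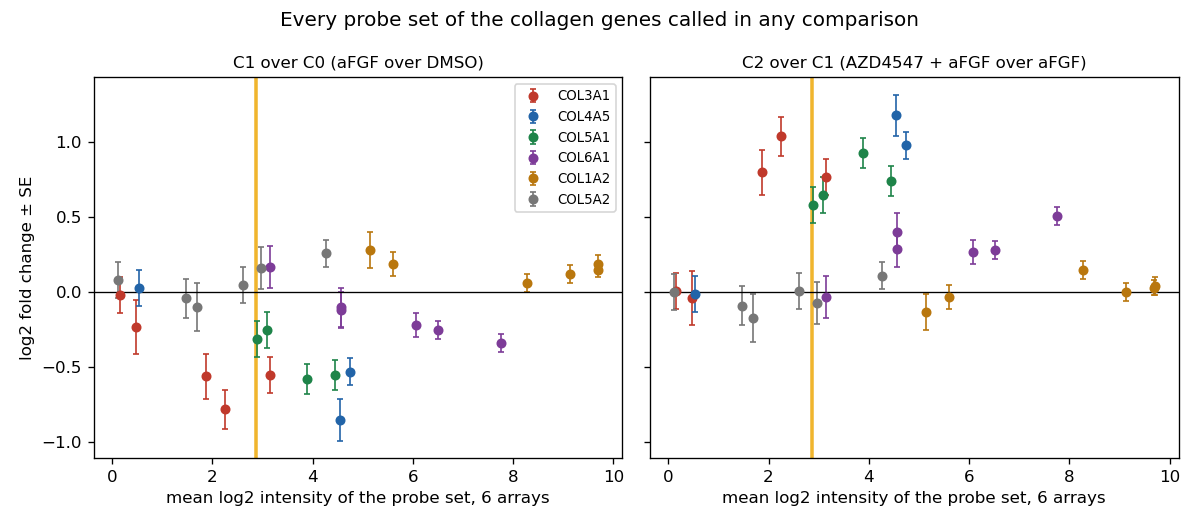
Log2 fold change with SE (vertical axis) against mean log2 intensity (horizontal axis) for every probe set of the 6 collagen genes called in any comparison, in panels by comparison, with the band marking the array medians. For aFGF over DMSO and for AZD4547 with aFGF over aFGF, all COL5A1 probe sets lie on the same side of 0 as its representative. So do the 3 COL3A1 and 2 COL4A5 probe sets that were called in a fit over all probe sets. Uncalled probe sets of COL4A5 (0.03 and -0.01) and COL6A1 (0.17 and -0.03) lie on the other side of 0 in both panels. An uncalled COL3A1 probe set does so for AZD4547 with aFGF over aFGF, at -0.04.

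The other probe sets of these genes were fitted together with all 49293 on the arrays, as an alternative chosen after the data were seen. Of 5 COL3A1 probe sets, 3 were called lower with aFGF and higher with AZD4547 and aFGF against aFGF, including 2 below the array median, at -0.78 and 1.04 for 1 of them and -0.56 and 0.80 for the other. The remaining 2 were the dimmest, with means of 0.47 and 0.15 and differences of -0.23 ± 0.18 and -0.02 ± 0.12 with aFGF, and were not called. The second COL4A5 probe set fell by 0.85 ± 0.14 with aFGF (adjusted p = 0.002) and rose by 1.18 ± 0.14 (adjusted p = 9.3e-05), and the third, with a mean of 0.53, was not called.

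All 4 COL5A1 probe sets were called higher in the second comparison, by 0.58 to 0.93, and 2 of the 4 were called lower with aFGF. Of 6 COL6A1 probe sets, all above the median, 2 were called lower with aFGF and 4 higher in the second comparison. The 6 ran from -0.34 to 0.17 with aFGF and from -0.03 to 0.51 in the second comparison. None of the 6 COL1A2 probe sets and none of the 6 COL5A2 probe sets was called in this wider fit, in which their representatives had the same log2 differences as above. COL5A2 had 1 probe set above the median on every array.

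Among 21 measured genes of collagen hydroxylation, folding and export, 6 were called lower and 0 higher with aFGF, and 7 higher and 2 lower with AZD4547 and aFGF against aFGF. The 28.6% called lower with aFGF and 33.3% higher in the second comparison stand beside 9.72% and 15.6% of all genes, and beside 16.7% and 26.5% of genes above the median on every array, as 18 of the 21 were. Their median log2 fold changes were -0.109 and 0.118, beside -0.008 and -0.020 over all genes and -0.034 and 0.038 over genes above the median. The 0 called higher with aFGF compares with 5.92% of all genes and 10.3% of genes above the median. The 2 lower in the second comparison are 9.52% of the list, against 10.1% and 17.2%. The prolyl hydroxylase subunit P4HA2, whose enzyme stabilises the triple helix, read 7.70 and 7.79 in DMSO, 7.38 and 7.39 with aFGF, and 8.28 and 8.25 with AZD4547 and aFGF. It fell by 0.36 ± 0.05 with aFGF (limma adjusted p = 0.00086) and rose by 0.87 ± 0.05 (adjusted p = 5.7e-07), and against DMSO it was higher by 0.52 ± 0.05 (adjusted p = 0.00068). Its groups did not overlap. P4HA1, the alternative catalytic subunit, fell by 0.28 ± 0.06 and rose by 0.58 ± 0.06 (adjusted p = 0.0055 and 2e-05).

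CRTAP, part of the complex that hydroxylates selected prolines, fell by 0.44 ± 0.08 and rose by 0.47 ± 0.08 (adjusted p = 0.0024 and 0.00069). The lysyl hydroxylases PLOD1 and PLOD2, whose products serve cross-links, rose by 0.49 ± 0.06 and 0.49 ± 0.07 (adjusted p = 9e-05 and 0.00036), after falls with aFGF of 0.29 and 0.24 (adjusted p = 0.0062 and 0.044). SERPINH1, the collagen chaperone HSP47, did not follow that order. It read 8.08 and 8.30 in DMSO, 7.79 and 7.71 with aFGF, and 7.96 and 7.53 with AZD4547 and aFGF, a fall of 0.44 ± 0.11 with aFGF (adjusted p = 0.022), a difference of -0.01 between the last 2 groups (adjusted p = 0.97) and a fall of 0.45 ± 0.11 against DMSO (adjusted p = 0.049). Without the second AZD4547 array the last difference was -0.23 (adjusted p = 0.32). P3H4, a partner of the lysyl hydroxylases, was lower by 0.28 against DMSO (-0.28 ± 0.06, adjusted p = 0.025), from an _x_at probe set, whose probes can match other transcripts. Without such probe sets its difference was -0.09 (adjusted p = 0.73). CRTAP and PLOD2 were also read from _x_at probe sets. The PLOD2 call with aFGF held in 6 of 14 alternative settings, and without such probe sets its limma adjusted p was 0.19.

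Of 19 measured genes of procollagen processing, cross-linking and assembly, 2 were called lower with aFGF (10.5%, against 9.72% of all genes) and the same 2 higher in the second comparison (10.5%, against 15.6%). ADAMTS3, an aminopropeptidase of procollagen, fell by 0.32 ± 0.08 and rose by 0.39 ± 0.08 (adjusted p = 0.016 and 0.0027). BMP1, which removes carboxyl propeptides, fell by 0.38 ± 0.10 and rose by 0.34 ± 0.10 (adjusted p = 0.031 and 0.032). The cross-linking enzyme LOX was not called. Averaged over all its probe sets, the ADAMTS3 difference was 0.01 with aFGF (adjusted p = 0.94) and 0.22 in the second comparison (adjusted p = 0.045). Averaged in the same way, BMP1 differed by -0.11 and 0.18 (adjusted p = 0.43 and 0.11), and its fall with aFGF, at -0.24 without the first DMSO array, was lost in 8 of the 14 alternative settings.

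Of 14 measured basement membrane partners, 1 was called lower with aFGF (7.14%, against 9.72% of all genes), and 4 higher (28.6%, against 15.6%) and 1 lower (7.14%, against 10.1%) in the second comparison. FBLN1, a matrix glycoprotein, fell by 0.34 ± 0.06 and rose by 0.50 ± 0.06 (adjusted p = 0.0029 and 9.9e-05). AGRN, the heparan sulfate proteoglycan agrin, read 7.23 and 7.46 in DMSO, 7.20 and 7.27 with aFGF, and 7.88 and 7.95 with AZD4547 and aFGF. The AZD4547 arrays of AGRN were above the other 4, by 0.68 ± 0.07 against aFGF (adjusted p = 3.8e-05) and 0.57 ± 0.07 against DMSO (adjusted p = 0.002). The laminin chains LAMB2 and LAMA5 rose by 0.46 ± 0.12 and 0.32 ± 0.10 in the second comparison (adjusted p = 0.012 and 0.035). Averaged over all probe sets, AGRN differed by 0.27 from both groups (adjusted p = 0.013 against aFGF and 0.056 against DMSO), FBLN1 by -0.20 and 0.30 (adjusted p = 0.062 and 0.0049), and LAMA5 by 0.20 (adjusted p = 0.13).

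**Figure D4:**
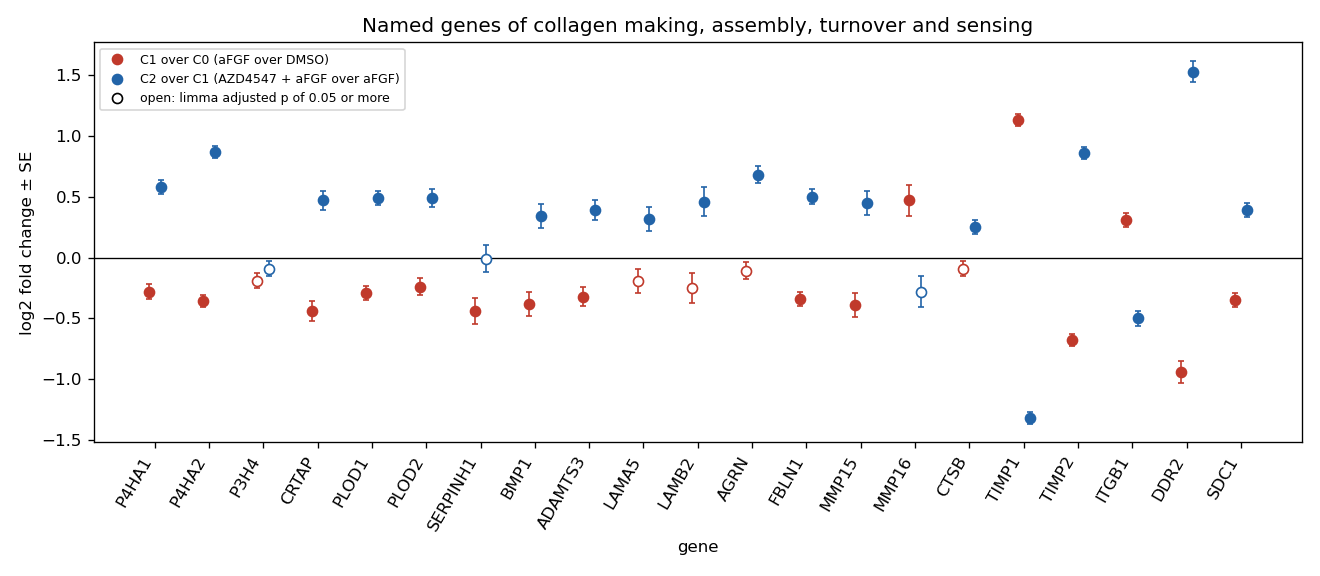
Log2 fold change with SE (vertical axis) for aFGF over DMSO and for AZD4547 with aFGF over aFGF. Shown are the named genes of collagen modification, processing, basement membrane, breakdown and reception (horizontal axis). Filled points mark a limma adjusted p under 0.05. TIMP1 and DDR2 have the largest differences for aFGF over DMSO and for AZD4547 with aFGF over aFGF, and TIMP1 and ITGB1 rise in the first and fall in the second.

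Of 17 measured genes of collagen breakdown and its inhibitors, 2 were called higher and 2 lower with aFGF (11.8% each, against 5.92% and 9.72% of all genes), and 3 higher and 1 lower in the second comparison (17.6% and 5.88%, against 15.6% and 10.1%). TIMP1, an inhibitor of matrix metalloproteinases, read 9.53 and 9.63 in DMSO, 10.72 and 10.71 with aFGF, and 9.43 and 9.37 with AZD4547 and aFGF. It rose by 1.13 ± 0.05 with aFGF (adjusted p = 9e-08) and fell by 1.32 ± 0.05 in the second comparison (adjusted p = 1.8e-08). TIMP2, of the same family, went the other way, from 7.60 and 7.60 to 6.90 and 6.93 and to 7.79 and 7.75. TIMP2 fell by 0.68 ± 0.05 (adjusted p = 7.8e-06) and rose by 0.86 ± 0.05 (adjusted p = 6.1e-07). The membrane-type metalloproteinase MMP16 rose by 0.47 ± 0.13 with aFGF (adjusted p = 0.026), and MMP15 fell by 0.39 ± 0.10 and rose by 0.45 ± 0.10 (adjusted p = 0.021 and 0.0052). The MMP15 difference with aFGF was -0.23 with averaged probe sets and -0.24 without the second DMSO array (adjusted p = 0.23 and 0.095). The lysosomal protease CTSB rose by 0.25 ± 0.06 in the second comparison (adjusted p = 0.011).

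Of 13 measured collagen receptors, 1 was called higher and 2 lower with aFGF (7.69% and 15.4%, against 5.92% and 9.72% of all genes), and 2 higher and 1 lower in the second comparison (15.4% and 7.69%, against 15.6% and 10.1%). DDR2, a receptor tyrosine kinase that binds fibrillar collagen, read 5.51 and 5.63 in DMSO, 4.62 and 4.62 with aFGF, and 6.03 and 6.28 with AZD4547 and aFGF. It fell by 0.94 ± 0.09 (adjusted p = 4e-05), rose by 1.53 ± 0.09 (adjusted p = 4e-07), and was higher by 0.59 ± 0.09 against DMSO (adjusted p = 0.0047). SDC1, a cell surface proteoglycan, fell by 0.35 ± 0.06 and rose by 0.39 ± 0.06 (adjusted p = 0.0012 and 0.00027), and its difference with aFGF was -0.18 with averaged probe sets (adjusted p = 0.074). ITGB1, the shared beta subunit of the collagen-binding integrins, went the other way, with a rise of 0.31 ± 0.06 and a fall of 0.50 ± 0.06 (adjusted p = 0.0039 and 7.5e-05).

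Over the 84 partner genes, 3 were called higher (3.57%, against 5.92% of all genes) and 13 lower (15.5%, against 9.72%) with aFGF. In the second comparison 18 were higher (21.4%, against 15.6%) and 5 lower (5.95%, against 10.1%), and against DMSO 4 were higher (4.76%, against 2.28%) and 2 lower (2.38%, against 2.41%). Of the 84, 43 were above the median on every array. Among the partner genes named here, the calls that held in each of the 14 alternative settings were DDR2, P4HA2, TIMP1 and TIMP2 with aFGF, and 13 in the second comparison, where those of BMP1, LAMB2, LAMA5, MMP15 and CTSB were lost in at least 1. None of the partner calls against DMSO held without the intensity trend in the variance. The partner lists and the collagen genes were drawn up with earlier results of these data known, and the counts are descriptions beside the array-wide shares above.

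Markers of cells that make fibrillar collagen in tissue were checked on the same arrays. All 9 fibroblast markers, PDGFRA, PDGFRB, THY1, FAP, POSTN, DPT, MFAP5, LUM and DCN, were below the array median on every array, with summed intensities of 18.2 to 20.7 in DMSO, 19.1 to 19.9 with aFGF, and 17.8 to 18.2 with AZD4547 and aFGF, and limma called 0 of the 9 in any comparison, with 1 at an unadjusted p under 0.05 in each. Above the median on all 6 arrays were 0 of 8 endothelial markers (TIE1 was above it on 4) and 0 of 8 leukocyte markers, and DES was the 1 of 6 smooth muscle markers above it. None of these 22 was called by limma, and at most 1 of each list had an unadjusted p under 0.05. Of 12 genes of epithelium and endometrial lineage, KRT18, PAX2, HOXA10, HOXA11, ESR1 and MUC1 were above the median on every array, while EPCAM and CDH1, which define most epithelial cells, were below it on every array. Of 6 genes of mesenchymal state, the filament gene VIM and ZEB1 were above it on every array, and CDH2, ZEB2, SNAI2 and TWIST1 were below it on every array. Called with aFGF was the keratin gene KRT18, with a rise of 0.44 ± 0.09 (adjusted p = 0.0078). With AZD4547 and aFGF against aFGF, KRT18 fell by 0.53 ± 0.09 (adjusted p = 0.0013) and VIM fell by 0.20 ± 0.04 (adjusted p = 0.003), while the transcription factor genes PAX2 and HOXA10 rose by 0.30 ± 0.09 and 0.45 ± 0.11 (adjusted p = 0.033 and 0.0072). Of the 12 genes of epithelium and endometrial lineage, 8.33% were called higher with aFGF, against 5.92% of all genes. In the second comparison 16.7% were called higher and 8.33% lower, against 15.6% and 10.1%. The 1 call among the 6 mesenchymal genes is 16.7%, against 10.1% of all genes called lower. The part of these marker changes in the collagen changes was not tested. In bulk RNA, fewer cells with a transcript and less of it per cell cannot be told apart.

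The authors' deposited table gives a ratio of group means and a p-value for each group with aFGF against DMSO (its test: not given in the sources used here). By the authors' deposited table, a total of 6 collagen genes had a p under 0.05 for aFGF against DMSO, beside 16.1% of all genes by the same probe sets. The ratios there were 0.691 for COL4A5, 0.683 for COL5A1, 0.680 for COL3A1 and 0.791 for COL6A1 in the authors' deposited table, with p-values of 0.0142, 0.0431, 0.0334 and 0.00304. The 2 others of the authors' deposited table were COL5A2, at 1.19 (p = 0.024), and COL24A1, at 1.05 (p = 0.01), whose limma difference did not pass. For AZD4547 and aFGF against DMSO, the authors' deposited table has 4 collagen genes at a p under 0.05, all with ratios above 1, beside 10.1% of all genes. These were COL4A5 (1.36), COL5A2 (1.29), COL6A1 (1.12) and COL24A1 (1.05) in the authors' deposited table, and COL1A2 was not among them (p = 0.132).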

How the data were processed

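Per the labels' protocols, TRIzol was used for extraction, and 500 ng of total RNA gave the biotinylated cRNA for Affymetrix arrays. Per the submitters' processing notes the values came from RMA, with no version, a method of background correction, quantile normalization and probe summary. The deposited intensity values run from 0.750 to 6344 and are linear, with array type and step to that scale not given in the sources used here. Authors' values in a second table were the same (largest difference 0). The authors also deposited a ratio over the DMSO group and a p-value per probe set.

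Intensities were put on the log2 scale without a pseudocount. Of 49293 probe sets, 47340 name 1 gene, 1457 several and 496 none, and those naming 1 were reduced to 19040 genes by highest mean. Symbols were updated through Entrez identifiers, which changed none of the 43 collagen symbols. Group means over the 6 arrays were fitted with limma 3.58.1 (R 4.3.3), eBayes using a trend of variance with intensity, and 3 differences were tested, two-sided, with Benjamini-Hochberg adjustment over all genes. SE is limma's, with a median of 0.132 for collagen genes and 0.117 for all, and with 2 arrays a group the number of arrays limits precision. Of the 43 probe sets used, 2 end in _x_at (COL25A1 and COL6A2), a suffix for probes that can match unrelated transcripts, and 7 in _s_at, a suffix for probes shared by several transcripts, including COL3A1, COL5A1, COL5A2 and COL6A1.

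The members, the partner and marker lists and the tests were chosen with earlier results of these data known. Named with values were collagen genes above the array median on every array or called in any comparison, and up to 4 called members per partner list and comparison. COL1A1, COL3A1's and COL4A5's other probe sets, COL4A1, COL4A2, COL4A6, COL7A1, COL9A3 and LOX were named after their values were seen. Fits were also tested on simulated data. Alternatives covered centring, log2(value + 1), dim genes, the trend, the choice of probe set, the replicate block and leaving out each array.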

Additional observations from a re-analysis of the deposited data

How the results depend on the processing

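The 4 collagen rises with AZD4547 and aFGF against aFGF held in each of 14 alternatives, and their count ran from 4 to 5 (4 whenever 1 array was left out). The 5 collagen calls with aFGF became 3 when all probe sets of a gene were averaged and 2 to 6 with 1 array left out, the fewest without the first aFGF array. The 3 collagen calls with AZD4547 and aFGF against DMSO became 0 without the intensity trend, 1 with averaged probe sets (COL5A1, with all 3 lost), 1 in the fit over all probe sets (chosen after seeing the data) and 0 to 3 with 1 array left out. Partner calls with aFGF went from 16 to 7 without the trend and to 5 to 15 with 1 array left out. In the second comparison they went from 23 to between 15 and 24, and against DMSO from 6 to 10 without dim genes, 0 without the trend and 1 to 9 with 1 array left out. The 9 collagen genes above the median became 5 with averaged probe sets, 7 with the median over 1 probe set per gene and 6 when a margin of 1 was asked. The ADAMTS3 difference with aFGF turned from -0.32 to 0.01 with averaged probe sets (adjusted p = 0.94). The cause was not tested, except that leaving out an array leaves fewer arrays. A lone array of a group was assumed to vary like the others.

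Replicate numbers did not pair the arrays: deviations of same-numbered arrays correlated across 9520 genes at 0.0645 (DMSO and aFGF), 0.1373 (DMSO and AZD4547) and -0.0616 (aFGF and AZD4547). With the replicate block the collagen counts stayed at 5, 4 and 3, and the partner counts were 17, 23 and 8. With no detection calls, genes below the array median have no known distance to background.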
